A study of Mus musculus with 24 samples.

Results

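The keratin-associated protein genes, whose symbols begin with Krtap, were followed in mouse whisker (vibrissa) follicles kept for 24 h with or without tocopherol acetate (TA), pyridoxine hydrochloride (PH) and panthenyl ethyl ether (PEE). They were taken as every non-control probe whose gene name on the array starts with Krtap, which gave 59 probes for 55 genes out of 36593 gene or transcript names. The number before the hyphen put them in 26 subfamilies, and the probe with the highest mean signal stood for a gene with more than 1 probe. The treated groups received PEE at 0.3%, PH at 0.015%, TA at 0.024%, PEE with PH, PEE with TA, PH with TA or PEE, PH and TA together at these same doses, and the control group received none of them. Every group comprised 3 Agilent one-colour arrays, and each array held the pooled RNA of 10 whole follicles of B6C3F1 mice at postnatal day 9. The number of mice and their sex are not given in the sources used here, and isolated follicles in culture stand in for those in the skin.

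Keratin-associated proteins fill the space between the keratin filaments of the hair shaft and bind them together, largely through disulphide bonds of their many cysteines. Some subfamilies are rich in cysteine and others in glycine and tyrosine, and the genes are short and lie in clusters. They come on late in the differentiation of shaft cells, after the first hair keratins, so in a growing follicle their RNA belongs to the cortex and cuticle of the shaft above the matrix. PEE is an ether of panthenol (provitamin B5), PH is a form of vitamin B6 and TA is an ester of vitamin E.

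The sequences of a few probes are shown first because repeats in these genes limit which of them an array can tell apart. In 4 pairs of genes the probes of 60 bases shared an unbroken run of at least 20 bases, and 3 of the pairs lay within a subfamily. Krtap5-3 and Krtap5-4 shared 39 bases, and Krtap16-3 and Krtap19-2 shared 25 bases across subfamilies (the shared run is in capitals, and positions are on mm9).
Krtap5-3, chr7:149387633-149387692, plus strand: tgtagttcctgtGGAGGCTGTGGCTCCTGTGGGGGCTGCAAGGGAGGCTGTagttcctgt
Krtap5-4, chr7:149489675-149489734, plus strand: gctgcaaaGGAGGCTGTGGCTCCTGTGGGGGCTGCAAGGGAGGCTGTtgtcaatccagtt
Krtap16-3, chr16:88962906-88962965, minus strand: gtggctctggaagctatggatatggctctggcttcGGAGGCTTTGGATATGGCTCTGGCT
Krtap19-2, chr16:88874321-88874380, minus strand: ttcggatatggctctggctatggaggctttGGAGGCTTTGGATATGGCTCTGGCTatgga
The probe of Krtap20-2 is itself a repeat, with 4 copies of a unit of 12 bases (in capitals).
Krtap20-2, chr16:89206222-89206281, plus strand: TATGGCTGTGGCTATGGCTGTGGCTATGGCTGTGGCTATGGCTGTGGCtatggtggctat
The values of Krtap5-3 and Krtap5-4, of Krtap16-3 and Krtap19-2, of Krtap4-13 and Krtap4-6 (21 bases) and of Krtap5-1 and Krtap5-2 (20 bases) are therefore uncertain as values of single genes. Among the probes of the glycine-tyrosine-rich subfamilies named below, 8 of 15 held the letters TATGG on the strand of the probe, against 1 of 35 in the sulphur-rich subfamilies and 5.25% of all 56605 probes. The letters TGCTG stood in 2 of 15 and in 10 of 35 of them, against 9.68% of all probes.

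Signals are given as log2 of the processed signal minus the 75th percentile of the same array, so a value of 0 is a probe at that percentile and a step of 1 is a factor of 2. On this scale 53 of the 55 genes were well above background on all 24 arrays, and no spot of any gene was saturated. Krtap13 was not well above background on any array and was not tested. Krtap31-2 was well above background on 9 arrays, of which 3 belonged to PEE-PH-TA, and it passed the filter only through that group. The remaining 54 genes were tested among the 22062 that passed the filter.

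The signals were high for most of the family, and they cannot be ranked between genes because probes differ in how they bind. The 15 tested genes of the glycine-tyrosine-rich subfamilies (6, 7, 8, 19, 20, 21 and 22) had mean signals over the 24 arrays of 1.43 (Krtap6-3) to 8.08 (Krtap20-2). In the sulphur-rich subfamilies (1 to 5, 9 to 15, 17, 24, 26 and 27) the 34 tested genes lay between -1.80 (Krtap27-1) and 7.40 (Krtap4-6). Subfamilies 16, 28 and 31, left without a class here, held Krtap16-1 at -0.14, Krtap16-3 at 7.18, Krtap28-13 at 3.55, Krtap31-1 at -3.41 and Krtap31-2 at -5.58. The probes with the highest signal of their subfamilies were Krtap6-5 (5.13) and Krtap19-2 (7.55) among the glycine-tyrosine-rich subfamilies with several genes. Among the sulphur-rich ones besides subfamily 4 they were Krtap1-5 (5.15), Krtap3-1 (5.71), Krtap5-2 (6.04), Krtap9-3 (5.54) and Krtap10-4 (3.29). By probe position 23 of the tested genes lay on chromosome 16, 22 on chromosome 11, 5 on chromosome 7, 3 on chromosome 10 and 1 on chromosome 1. Both members of subfamily 16 share a number but not a place, since Krtap16-1 lies on chromosome 11 and Krtap16-3 on chromosome 16.

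**Figure D1:**
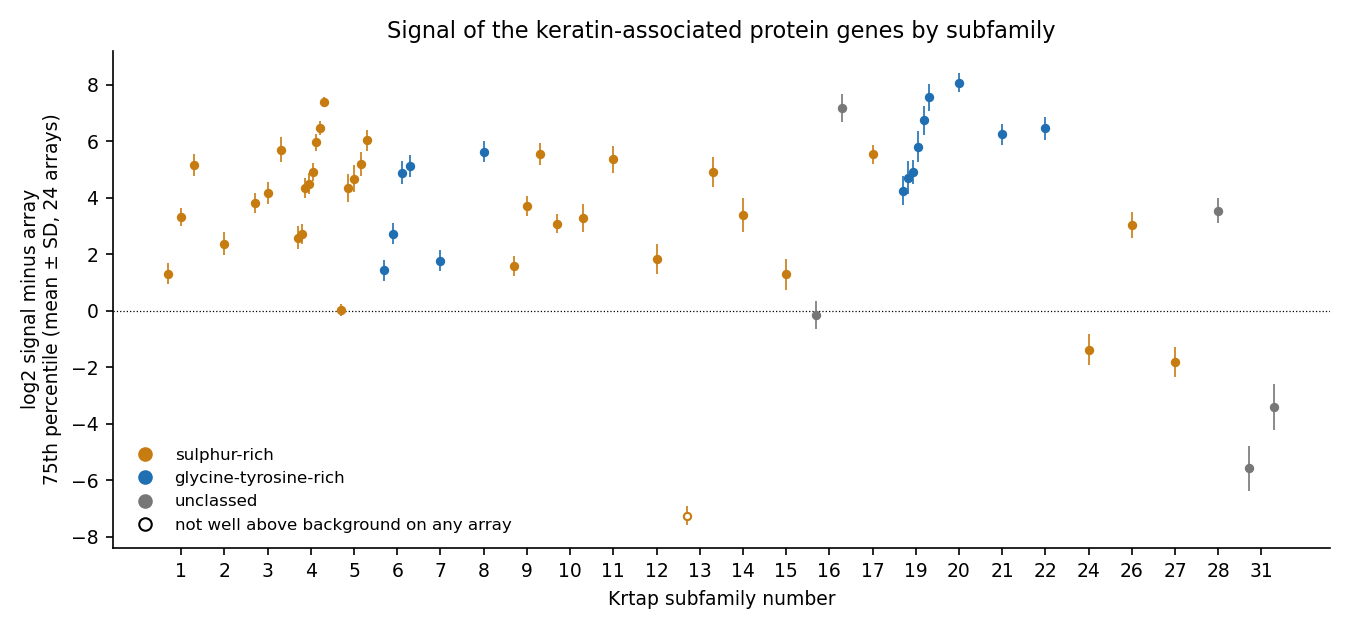
Mean signal of each of the 55 genes (log2 minus the 75th percentile of the array, points) with the SD over 24 arrays (bars), by subfamily number and coloured by class. Krtap13, the open point, was not well above background on any array, and 5 of the 54 tested genes lay below 0.

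The stretch before the gene start is shown for the genes that passed a test below and had a window in the RefSeq promoter table of GRCm38.p6, with Krtap20-2 beside them for its high signal. A window of 250 bases before to 50 after the start was found for 50 of the 55 genes, and Krtap12-1 had none. The letters TATAAA, searched on both strands, stood in 41 of the 50 windows (82.0%), against 14.2% of all 27025 windows. On the strand of the gene and within the last 50 bases before the start they stood in 66.0% of the family's windows, against 2.88% of all. The last 60 bases before the start follow, with TATAAA in capitals.
Krtap13-1, chr16:88728802-88728861, plus strand: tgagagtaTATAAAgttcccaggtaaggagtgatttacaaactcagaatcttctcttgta
Krtap16-1, chr11:99986594-99986653, minus strand: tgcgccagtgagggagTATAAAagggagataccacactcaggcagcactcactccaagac
Krtap24-1, chr16:88612280-88612339, minus strand: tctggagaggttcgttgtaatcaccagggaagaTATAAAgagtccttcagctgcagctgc
Krtap27-1, chr16:88671725-88671784, minus strand: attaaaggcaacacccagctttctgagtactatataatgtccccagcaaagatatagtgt
Krtap20-2, chr16:89205801-89205860, plus strand: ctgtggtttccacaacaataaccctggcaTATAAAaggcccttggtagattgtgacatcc
The first letter of the motif lay 52 bases before the start in Krtap13-1, 44 in Krtap16-1, 27 in Krtap24-1 and 31 in Krtap20-2, and Krtap27-1 had no match in these 60 bases. The letters CTTTGA, the core of sites that LEF and TCF factors are known to bind, stood on either strand in 15 of the 50 windows (30.0%), against 16.2% of all windows. On the strand of the gene and within the last 50 bases before the start they stood in 0.0% of the family's windows, against 1.13% of all.

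Within a group the genes of the family stood high or low together on an array. The median signal of the 54 genes in the single-compound groups was 3.66, 4.11 and 4.61 under PEE, 4.14, 3.93 and 4.76 under PH, and 4.80, 4.46 and 3.62 under TA (replicates 1, 2 and 3 throughout). In the combinations it was 4.43, 4.51 and 4.14 under PEE-PH, 4.98, 4.82 and 3.90 under PEE-TA, 4.01, 4.11 and 4.84 under PH-TA, and 4.51, 4.52 and 4.48 under PEE-PH-TA. Control arrays stood at 4.19, 4.97 and 4.23, so their range took in all 3 arrays of PEE-PH-TA and 1 or 2 arrays of each other treated group. The range between replicates was 1.18 in TA and 1.08 in PEE-TA, against 0.0407 in PEE-PH-TA and 0.781 in control.

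The same arrays stood high or low for nearly every gene. Replicate 3 of PH-TA and replicate 2 of control were the highest of their groups for 54 of 54 genes, and replicate 3 of PEE-TA was the lowest of its group for 54 of 54. Replicate 3 of TA was the lowest for 53, and the third replicates of PH and PEE were the highest for 51 and 50. Counted over all 8 groups, a gene had its highest value on the array where the family's median was highest in 348 of 432 cases (80.6%), against 34.3% over all genes tested. The family's own genes picked that array, which raises their share, so it is not a like comparison with the other lists. The share was 69.4% for 9 type I hair keratins, 66.7% for 6 type II hair keratins and 59.7% for 9 other shaft genes. It was 10% for 15 skeletal muscle genes, 6.94% for 9 endothelial genes and 20.5% for 11 dermal papilla genes. The remaining lists lay nearer to all genes, at 39.6% for 12 inner root sheath genes, 38.5% for 12 of the outer root sheath and epidermis, 36.2% for 10 macrophage genes, 34.4% for 12 matrix and shaft regulators and 29.2% for 9 melanocyte genes. All these lists come from the same arrays, and the part of other cell types in the family's shifts was not tested. In whole follicles, fewer shaft cells and less Krtap RNA per shaft cell cannot be told apart.

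**Figure D2:**
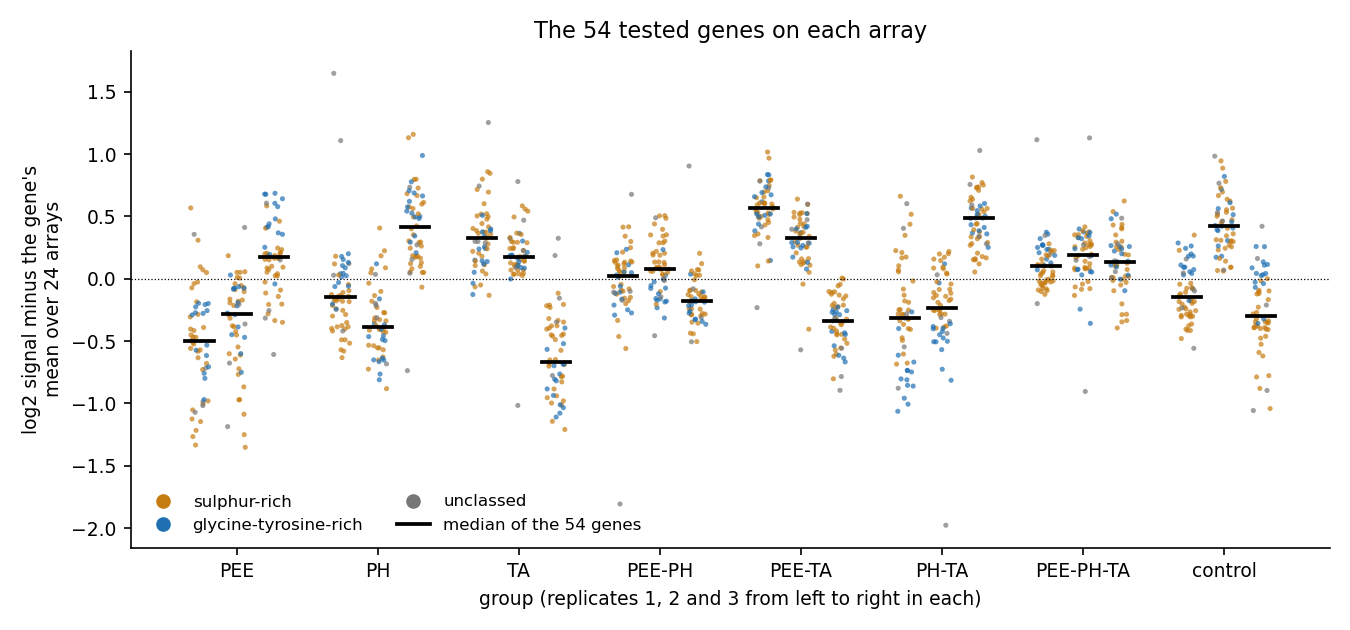
Signal of the 54 tested genes on each of the 24 arrays as the difference from the gene's own mean (log2, points coloured by class), with the median of the 54 genes as a bar. Groups run from PEE to PEE-PH-TA with control on the right, and whole columns of points sit above or below 0 together, as in replicate 2 of control.

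As a description over the 24 arrays, pairs of genes of 1 subfamily had a median Pearson correlation of 0.905 (71 pairs), and pairs from different subfamilies one of 0.642 (1360 pairs). These pairs share arrays and, in some subfamilies, probe sequence. Krtap31-1 and Krtap31-2 followed the median of the other genes least, with correlations of 0.20 and 0.24.

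The family varied more between the replicates of a group than other genes did in the median, although its signals were high. This spread holds differences between the independent experiments as well as error of measurement, and these were not separated. The SD between replicates of a group had a median of 0.406 over the 54 genes, against 0.148 over all genes tested and 0.0927 over the 5516 genes of highest signal. Every one of the 54 genes was above the median of all genes, from 0.166 for Krtap4-6 to 0.826 for Krtap31-1. The 15 hair keratins had a median of 0.366. Differences between the 8 group means took 24.2% of a Krtap gene's sum of squares in the median, against 56.5% for all genes and 60.4% for the 15 hair keratins. With 3 arrays a group, group means differ through the spread between arrays alone. The share is therefore above 0 without any effect of treatment, and its level in that case was not computed. Given the spread between replicates, a difference from control had a median standard error of 0.313. This gives a 95% interval of ± 0.657, against 0.119 and ± 0.250 for all genes.

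**Figure D3:**
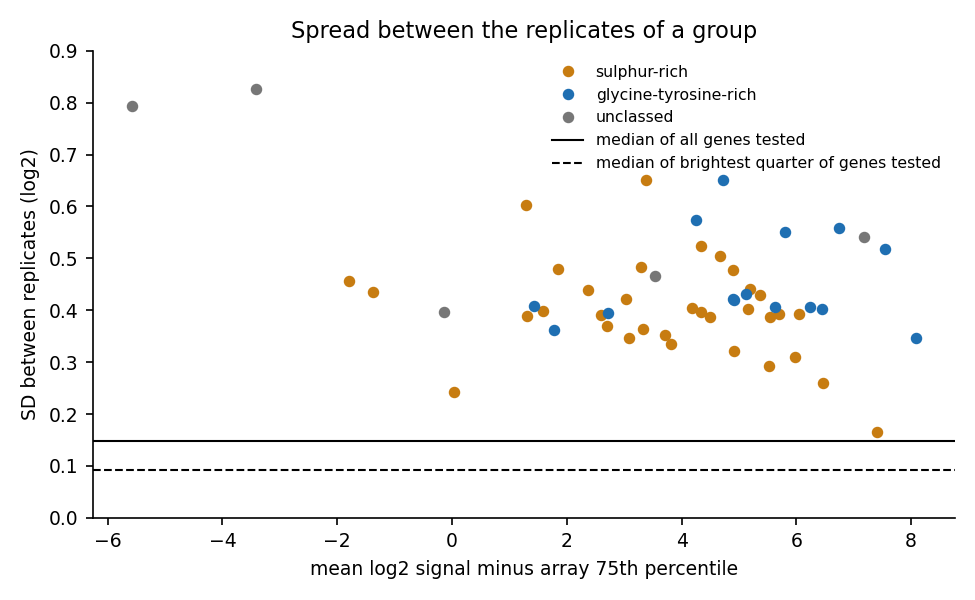
SD between replicates (log2) of each of the 54 tested genes against its mean signal, coloured by class, with the medians of all genes tested (0.148, solid line) and of the 5516 of highest signal (0.0927, dashed line). All points lie above the solid line, and the sulphur-rich gene nearest to it is Krtap4-6.

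Against control, 1 of the 54 genes passed an adjusted p of 0.05 in 1 of the 7 treated groups, by limma with Benjamini-Hochberg adjustment over all 22062 genes. PH-TA gave 1 rise and 0 falls, against 29.6% of all genes called in either direction and 12.1% called as higher. No Krtap gene passed under PEE (10.9% of all genes called), PH (5.25%), TA (1.83%), PEE-PH (35.9%), PEE-TA (25.5%) or PEE-PH-TA (16.5%). At an unadjusted p under 0.05 in limma the counts were 1 under PEE (25.1% of all genes), 0 under PH (20.7%) and 0 under TA (17.1%). They were 1 under PEE-PH (45.3%), 1 under PEE-TA (37.7%), 4 under PH-TA (41.3%) and 0 under PEE-PH-TA (29.2%). The lowest adjusted p of a Krtap gene in these other groups was 0.0931 for PEE, 0.281 for PH, 0.380 for TA, 0.0575 for PEE-PH, 0.107 for PEE-TA and 0.181 for PEE-PH-TA. These results do not show that the genes were alike: the 95% interval of the difference stayed within a log2 of 1 on both sides for 33 genes under PEE, 35 under PH, 38 under TA, 33 under PEE-PH, 35 under PEE-TA, 22 under PH-TA and 41 under PEE-PH-TA.

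Krtap16-1 was the gene that rose under PH-TA. Its probe (chr11:99846864-99846923 on mm9, minus strand) gave 0.46, -0.11 and 0.62 in PH-TA, against -0.38, -0.07 and -1.20 in control. Replicate 2 of PH-TA lay just below replicate 2 of control, so the groups overlapped at that pair. The means were 0.32 ± 0.38 in PH-TA and -0.55 ± 0.58 in control (SD, n = 3 each), a log2 difference of 0.87 ± 0.31 (SE, limma adjusted p = 0.0391). By replicate number, 1 slide each, the differences were 0.84, -0.04 and 1.81. The call ended without control replicate 3 (log2 difference 0.55, adjusted p = 0.218), control replicate 1 (0.96, 0.0520), PH-TA replicate 1 (0.80, 0.122) or PH-TA replicate 3 (0.72, 0.116). It also ended without replicate 1, 2 or 3 of all groups, where the log2 difference was 0.89, 1.32 and 0.40 (adjusted p = 0.200, 0.0550 and 0.203). With only the arrays of both groups in the fit it ended too (0.107), and with the overall array signal as a covariate the difference was 0.17. PEE-PH also gave a value above control for this gene, at 0.54, 0.35 and -0.22, but the log2 difference of 0.77 had an adjusted p of 0.0575. Krtap16-1 was above control in the mean under TA (0.16, 0.33 and -0.49) and PEE-TA (0.28, 0.33 and -0.46) too, and under PH and PEE-PH-TA. Only PEE lay below control in the mean (-1.13, -0.82 and -0.46), and control replicate 3 was the lowest of the 24 arrays.

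Beside the PH-TA comparison, in which 12.1% of all genes rose and 29.6% changed, 7 of 9 endothelial genes and 8 of 15 skeletal muscle genes rose. The summed linear signal of the endothelial list was 19.5 to 28.8 times the 75th percentile in PH-TA and 14.7 to 16.4 in control. That of the muscle list was 61.6 to 70.5 in PH-TA and 40.7 to 49.5 in control. No gene of either list was below background on all arrays. Of the 12 inner root sheath genes 9 rose, with sums of 919 to 1048 in PH-TA and 529 to 711 in control, and 4 of 9 melanocyte genes rose (7.99 to 9.16 in PH-TA and 6.89 to 7.81 in control). Of 12 genes of the outer root sheath and epidermis 3 rose and 4 fell, with sums of 2134 to 2364 in PH-TA and 2616 to 2739 in control. Of 10 macrophage genes 3 fell (35.2 to 40.9 in PH-TA and 42.6 to 55.8 in control), and of 11 dermal papilla genes 4 rose and 3 fell (27.1 to 35.3 in PH-TA and 30.2 to 36.2 in control). The lists nearest to the shaft were higher as well. Sums for type I hair keratins were 280 to 362 in PH-TA and 142 to 243 in control. For type II they were 111 to 145 and 59.8 to 91.2. Other shaft genes gave 263 to 345 in PH-TA and 153 to 246 in control. Matrix and shaft regulators gave 31.9 to 37.1 and 22.2 to 25.4. The part of all these lists in the Krtap values was not tested.

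In the other treated groups the Krtap gene with the largest difference from control did not pass. The number of Krtap genes whose 3 treated arrays did not overlap the 3 control arrays was 1 for PEE (32.6% of all genes), 0 for PH (26.5%), 1 for TA (22.7%), 9 for PEE-PH (49.9%), 0 for PEE-TA (41.1%), 3 for PH-TA (44.5%) and 3 for PEE-PH-TA (32.6%). Krtap27-1 gave -2.20, -3.05 and -2.15 under PEE, against -1.45, -1.07 and -2.03 in control. The arrays of PEE lay below those of control without overlap, by 0.95 in the mean (SE 0.35, adjusted p = 0.0931). Krtap13-1 gave 4.76, 4.99 and 5.70 under PH, against 4.48, 4.96 and 4.31 in control (log2 difference 0.56, adjusted p = 0.414). Those groups overlapped through replicate 2 of control. Krtap19-9b gave 5.95, 5.99 and 4.73 under TA, against 6.05, 6.53 and 6.07 in control (log2 difference -0.66, adjusted p = 0.464). The groups did not overlap, and by replicate number the difference was -0.10, -0.53 and -1.34, with replicate 3 of TA far below the other arrays.

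Krtap31-1 gave -3.64, -3.98 and -4.20 under PEE-TA, against -3.97, -2.65 and -2.99 in control (log2 difference -0.74, adjusted p = 0.419). The groups overlapped, and the sign was not shared by all 3 slides. Krtap31-2 gave -4.46, -4.45 and -5.09 under PEE-PH-TA, against -5.68, -5.05 and -6.47 in control. Only 1 of the 3 control arrays was well above background for it and it passed the filter through PEE-PH-TA alone, so no difference is given.

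The sizes of the differences varied by subfamily, and apart from Krtap16-1 none passed the test. The glycine-tyrosine-rich genes, which code for small cortex proteins, had a median log2 difference from control of -0.50 under PH-TA, -0.35 under TA, -0.30 under PEE-PH, -0.29 under PEE, -0.17 under PH, -0.02 under PEE-TA and 0.03 under PEE-PH-TA. The sulphur-rich genes had 0.06 under PH-TA, 0.04 under TA, -0.02 under PEE-PH, -0.19 under PEE, -0.03 under PH, 0.23 under PEE-TA and 0.15 under PEE-PH-TA. All genes tested had medians between -0.06 and 0.02 in these comparisons. With PEE all 15 glycine-tyrosine-rich genes and 27 of 34 sulphur-rich genes were below control in the mean. With PH-TA 13 of 15 and 16 of 34 were. Since genes of the family move together on an array, these counts do not stand for separate results. The direction of the whole family's median under PEE-PH and PH-TA turned under quantile scaling, to 0.03 and 0.01, against -0.08 and -0.10 on the main scale. The difference between classes kept its direction under quantile scaling, at -0.36 for the glycine-tyrosine-rich and 0.10 for the sulphur-rich genes under PH-TA.

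Seen within each array, where a shift common to the whole family cancels, the glycine-tyrosine-rich median minus the sulphur-rich median was 0.69 to 1.12 in PH-TA, 0.83 to 1.04 in TA and 0.97 to 1.20 in PEE-PH, against 1.20 to 1.54 in control. The arrays of PH-TA, TA and PEE-PH all lay below every control array, those of PEE-PH by a margin lost in the rounding. In PEE it was 1.44 to 1.53, in PH 0.84 to 1.35, in PEE-TA 1.07 to 1.22 and in PEE-PH-TA 1.21 to 1.35. The offset itself reflects the probes, and the differences between groups carry no test here.

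**Figure D4:**
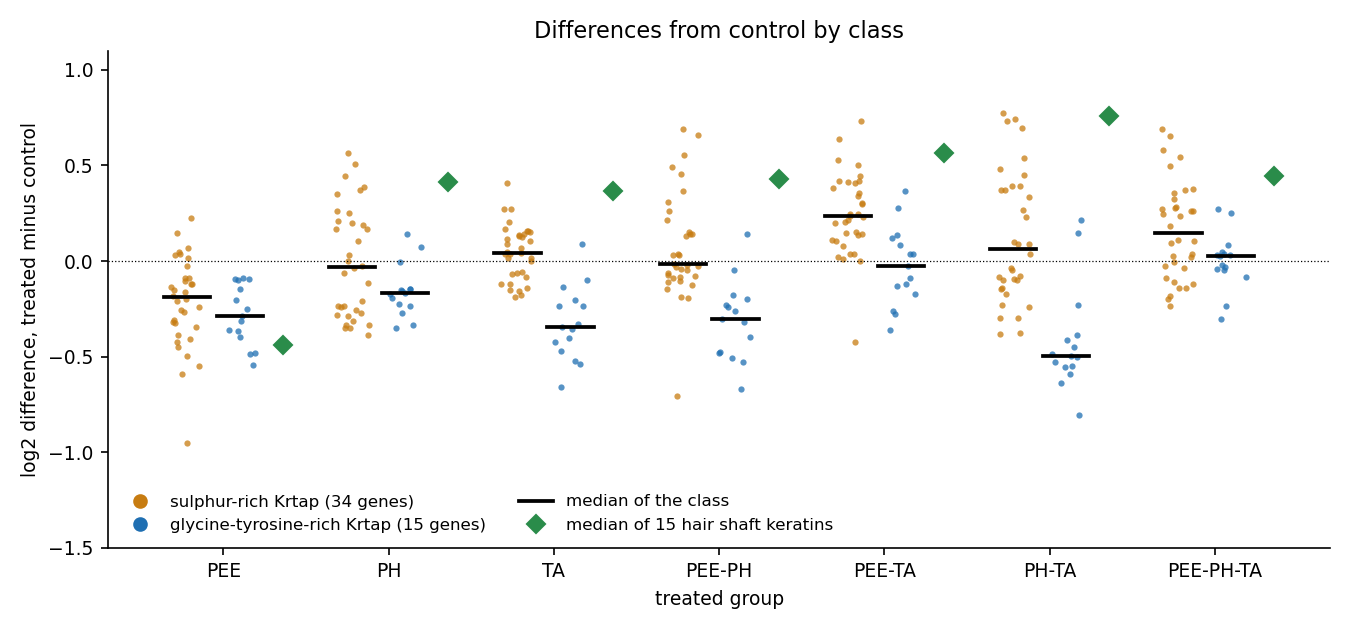
Log2 difference from control of each sulphur-rich gene (34) and each glycine-tyrosine-rich gene (15) in the 7 treated groups, with the class medians as bars and the median of 15 hair shaft keratins as diamonds. With PH-TA the class medians are 0.06 and -0.50, and the keratin median is 0.76.

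Among the glycine-tyrosine-rich subfamilies, subfamily 19 (6 genes) had the lowest median under PH-TA (-0.56), like the single gene Krtap22-2 (-0.56), followed by subfamily 6 with 4 genes (-0.47), Krtap21-1 (-0.41) and Krtap20-2 (-0.39). Krtap7-1 and Krtap8-1 lay on the other side, at 0.21 and 0.15. Krtap22-2 gave 5.72, 5.95 and 6.89 under PH-TA, against 6.64, 7.02 and 6.57 in control. Replicates 1 and 2 of PH-TA were below all 3 control arrays and replicate 3 was inside their range. Without replicate 3, 15 genes fell under PH-TA: Krtap4-6, Krtap6-1, Krtap6-2, Krtap6-3, Krtap6-5, Krtap16-3, Krtap19-1, Krtap19-2, Krtap19-3, Krtap19-4, Krtap19-5, Krtap19-9b, Krtap20-2, Krtap21-1 and Krtap22-2. In that fit 21.5% of all genes were called and 13% called as lower. Replicate 3 was the highest array of PH-TA for 54 of 54 genes and the lowest of control for 39. The genes move together on an array, so the 15 falls are not separate results. Without PH-TA replicate 3 alone, 4 genes fell (Krtap6-2, Krtap19-4, Krtap19-9b and Krtap22-2), against 29.9% of all genes called and 17.9% called as lower.

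With PEE-PH, where the replicates lay close together, 9 Krtap genes had arrays that did not overlap with control, against 49.9% of all genes. All 9 were lower under PEE-PH: the 6 genes of subfamily 19, Krtap22-2, Krtap16-3 and Krtap4-6. Krtap19-1 was 0.53 below control and Krtap22-2 0.51 below it, with adjusted p of 0.359 and 0.213. With only the arrays of PEE-PH and control in the fit, 7 genes fell, namely Krtap16-3, Krtap19-1, Krtap19-2, Krtap19-4, Krtap19-5, Krtap19-9b and Krtap22-2, against 30.5% of all genes called and 17.1% called as lower in that fit. Krtap16-3 and Krtap19-2 are the pair whose probes share 25 bases.

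The sulphur-rich subfamilies did not share 1 direction. With PH-TA the median was 0.54 in subfamily 3 (3 genes), 0.37 in subfamily 1 (3 genes) and 0.24 in subfamily 10 (2 genes). It was -0.08 in subfamily 9 (3 genes), -0.10 in subfamily 4 (8 genes) and -0.30 in subfamily 5 (5 genes). Single-gene subfamilies gave 0.78 (Krtap13-1), 0.74 (Krtap12-1), 0.73 (Krtap24-1), 0.48 (Krtap11-1), 0.45 (Krtap17-1), 0.34 (Krtap26-1), 0.27 (Krtap2-4), 0.10 (Krtap14), 0.03 (Krtap27-1) and -0.10 (Krtap15). In human follicles members of subfamilies 5, 10 and 12 and KRTAP24-1 are known from the cuticle of the shaft. Krtap28-13, the gene on chromosome 1, was 0.45 below control under PH-TA, and none of these genes passed.

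Krtap3-1 gave 6.14, 5.86 and 6.52 under PH-TA, against 5.41, 5.80 and 5.23 in control. The groups did not overlap, as for Krtap11-1 and Krtap13-1 (3 genes, against 44.5% of all genes), and the log2 difference of 0.70 had an adjusted p of 0.0894. It passed under quantile scaling, with normexp background and in the value table of the authors. In the same comparison 6 of 15 hair keratins rose, against 12.1% of all genes called as higher, with a median of 0.76 over the 15.

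The 3 compounds form a full factorial, so each effect could also be averaged over the 4 backgrounds of the other compounds, which used all 24 arrays and had a median standard error of 0.157. The average effect of PH gave 3 rises and 0 falls among the 54 genes, against 31.3% of all genes called and 13.9% called as higher. Without replicate 3 it gave 0 rises and 14 falls, against 21.9% of all genes called and 13.3% called as lower. Replicate 3 was the highest array for 51 of 54 genes in PH and 54 in PH-TA. It was the lowest for 53 in TA, 54 in PEE-TA and 39 in control. The other way, it was the highest for 50 in PEE and the lowest for 39 in PEE-PH and 22 in PEE-PH-TA. The genes move together on an array, so the 14 falls are not separate results. The 14 genes were Krtap4-2, Krtap4-6, Krtap4-7, Krtap4-8, Krtap4-13, Krtap4-16, Krtap6-1, Krtap6-2, Krtap6-5, Krtap9-1, Krtap19-4, Krtap19-9b, Krtap20-2 and Krtap21-1. The average effect of PEE gave 0 rises and 1 fall, against 27% of all genes called and 14.2% called as lower. That of TA gave none, against 7.99% of all genes. For TA 4 Krtap genes had an unadjusted p under 0.05 in limma, against 24.4% of all genes. Under PH 7 had such a p (43% of all genes) and under PEE 2 (36.8%). The lowest adjusted p for TA was 0.122 (Krtap16-1).

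Krtap12-1 (probe at chr10:77183942-77184001 on mm9, plus strand) rose under PH. It gave 1.46, 2.03 and 2.37 under PH, 1.97, 2.33 and 1.92 under PEE-PH, 2.51, 1.88 and 2.58 under PH-TA and 1.82, 2.20 and 2.47 under PEE-PH-TA. Without PH it gave 0.87, 1.20 and 1.51 under PEE, 2.09, 2.14 and 1.02 under TA, 2.18, 1.98 and 1.04 under PEE-TA and 1.47, 2.31 and 0.97 in control. The 5 lowest arrays were replicates 1 and 2 of PEE and the third replicates of TA, PEE-TA and control, and the 12 arrays under PH overlapped the others. The means were 2.13 ± 0.34 under PH and 1.56 ± 0.54 without it (SD, n = 12 each), a log2 difference of 0.56 ± 0.18 (SE, limma adjusted p = 0.0274). The difference was 0.29, 0.20 and 1.20 by replicate number, and without replicate 3 it was 0.25 (adjusted p = 0.266). Leaving out replicate 1 or 2 also ended the call (0.0982 and 0.0521), and among single arrays so did control replicate 3 (0.0538) and PEE-TA replicate 3 (0.0506).

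Krtap24-1 (probe at chr16:88611735-88611794 on mm9, minus strand) rose under PH as well. It gave -1.34, -1.15 and -1.32 under PH, -0.95, -0.93 and -1.38 under PEE-PH, -1.30, -1.20 and -0.63 under PH-TA and -1.18, -1.11 and -0.97 under PEE-PH-TA. Without PH it gave -2.70, -2.24 and -1.65 under PEE, -1.23, -1.04 and -1.83 under TA, -0.58, -1.01 and -1.82 under PEE-TA and -1.85, -1.07 and -2.41 in control. The 12 arrays under PH were close together, with an SD of 0.22, and those without it ranged on both sides of them, with an SD of 0.64. The means were -1.12 under PH and -1.62 without it, a log2 difference of 0.50 ± 0.17 (SE, limma adjusted p = 0.0307). By replicate number the difference was 0.40, 0.24 and 0.85. Leaving out replicate 1, 2 or 3 ended the call (adjusted p = 0.144, 0.0772 and 0.0781), as did 8 single arrays (0.0516 to 0.0592): control 3, PH 2, PEE 1, TA 3, PH-TA 3, PEE-TA 3 and PEE-PH 1 and 2. With normexp background the difference was 0.20 (adjusted p = 0.0520), which also ended it.

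Krtap13-1 (probe at chr16:88729718-88729777 on mm9, plus strand) was the third gene that rose under PH. It gave 4.76, 4.99 and 5.70 under PH, 5.03, 5.30 and 4.79 under PEE-PH, 5.42, 4.99 and 5.67 under PH-TA and 4.92, 5.19 and 5.13 under PEE-PH-TA. Without PH it gave 4.33, 3.55 and 4.95 under PEE, 4.85, 5.25 and 3.76 under TA, 5.51, 5.06 and 4.69 under PEE-TA and 4.48, 4.96 and 4.31 in control. The lowest arrays were PEE replicate 2 and TA replicate 3, and PEE-TA overlapped the groups that had PH. The log2 difference was 0.52 ± 0.18 (SE, limma adjusted p = 0.0395), with 0.24, 0.41 and 0.90 by replicate number. Leaving out replicate 1, 2 or 3 ended the call (0.152, 0.0789 and 0.121). So did 14 single arrays (0.0523 to 0.0713): control 1 and 3, PH 3, PEE 1 and 2, TA 3, PH-TA 1 and 3, PEE-TA 2 and 3, PEE-PH 1 and 2 and PEE-PH-TA 2 and 3.

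Krtap27-1 (probe at chr16:88671295-88671354 on mm9, minus strand) fell under PEE. It gave -2.20, -3.05 and -2.15 under PEE, -2.36, -2.01 and -2.31 under PEE-PH, -1.19, -2.21 and -2.42 under PEE-TA and -1.84, -1.71 and -1.55 under PEE-PH-TA. Without PEE it gave -1.68, -1.90 and -0.64 under PH, -1.40, -1.44 and -2.18 under TA, -1.63, -1.58 and -1.24 under PH-TA and -1.45, -1.07 and -2.03 in control. PEE and PEE-PH were low on all their arrays, while PEE-PH-TA lay among the groups without PEE. The means were -2.08 ± 0.48 under PEE and -1.52 ± 0.42 without it (SD, n = 12 each), a log2 difference of -0.56 ± 0.18 (SE, limma adjusted p = 0.0225). All 3 replicate numbers had the sign, at -0.36, -0.75 and -0.58. The call ended without replicate 1 (adjusted p = 0.0739) or replicate 2 (0.193), and no single array ended it.

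**Figure D5:**
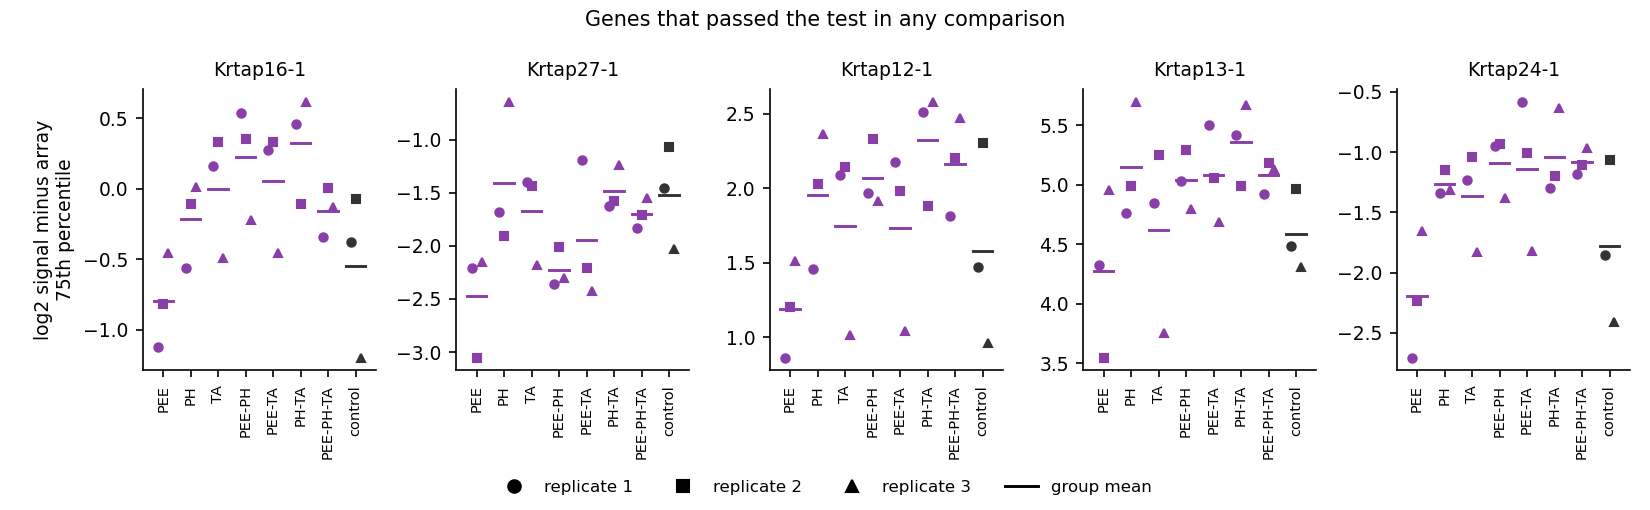
Signal of the 5 genes that passed in any comparison (log2 minus the 75th percentile of the array) on every array, with a marker per replicate number, the group mean as a bar and control in dark grey on the right of each panel. Krtap16-1 has its highest mean in PH-TA (0.32), and Krtap27-1 has its lowest in PEE (-2.47).

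With the overall signal of the array as a covariate none of these 5 calls remained: the adjusted p was 0.894 for Krtap16-1, 0.829 for Krtap12-1, 0.820 for Krtap13-1, 0.697 for Krtap24-1 and 0.118 for Krtap27-1. In that fit 0.535% of all genes were called for PH-TA, 1.17% for the average effect of PH and 22.1% for that of PEE. The 75th percentile signal was 203 to 248 in PH-TA and 155 to 190 in control, so this covariate moves with the treatment. Across the whole family the average effects were small, with medians of -0.02 for PH, 0.05 for PEE and 0.14 for TA, and the 95% interval stayed within a log2 of 1 for 54, 53 and 53 of the 54 genes. For the 15 hair keratins the average effect of PH gave 9 rises and a median of 0.40, against 13.9% of all genes called as higher. That of TA gave 7 rises and a median of 0.42 (7.99% of all genes called in either direction). That of PEE gave 2 falls and a median of -0.13 (14.2% of all genes called as lower). Under PH Krt82, known from the cuticle of human hair, rose by 0.71 and Krt32, a type I keratin of the same layer, by 0.65, and Krt31 of the cortex by 0.49 (limma adjusted p = 0.00108, 0.00309 and 0.0138). These keratin calls are from the main fit, and they were not followed through the fit with the covariate or without single arrays or replicates.

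Interactions were tested as the change in the effect of a compound when a second was present, averaged over the third. No Krtap gene passed for PEE with PH (0% of all genes called), PEE with TA (0%) or PH with TA (13.7%) in limma. At an unadjusted p under 0.05 in limma the counts were 0 (4.21% of all genes), 1 (14.5%) and 0 (27%). For PEE with TA the values of all 15 glycine-tyrosine-rich genes were above 0, from 0.34 to 0.94 with a median of 0.55, and those of the sulphur-rich genes had a median of 0.15. Of the 54 Krtap genes 49 were above 0, and the median over all genes tested was 0.02. Krtap genes move together on an array, so these counts are not separate results. Krtap22-2 had the lowest p, with an interaction of 0.77 ± 0.31 (SE, limma adjusted p = 0.268) and 1.26, 0.67 and 0.38 by replicate number. It gave 6.89, 6.53 and 6.01 under PEE-TA, 6.23, 6.24 and 6.82 under PEE, 6.33, 6.64 and 5.64 under TA and 6.64, 7.02 and 6.57 in control. Together with PH it gave 6.81, 6.80 and 6.72 in PEE-PH-TA, 6.21, 6.22 and 6.27 in PEE-PH, 5.72, 5.95 and 6.89 in PH-TA and 6.66, 6.05 and 7.08 in PH alone. All 3 arrays of PEE-PH-TA lay above those of PEE-PH, while PEE-TA lay within the range of PEE, TA and control.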

How the data were processed

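Signal intensity per spot came from the deposited scans of 24 arrays in 1 colour, read by Agilent Feature Extraction 12.0.3.1 per the submitters' processing notes. The authors' deposited value table in log2, whose processing the sources used here do not state, served as an alternative. Per the labels a sample was the RNA of 10 follicles, and the replicates were 3 independent experiments. Each replicate number lay on 1 slide. Tests used log2 of the processed signal intensity less the array's 75th percentile, with non-uniform and outlier spots left out. Genes entered if some group had all its arrays well above background, which 22062 did. The 13 comparisons were contrasts in limma 3.58.1 (R 4.3.3, 16 residual degrees of freedom), adjusted by Benjamini-Hochberg with a threshold of 0.05. On simulated data for PEE-PH-TA against control (22062 genes), 45% of shifts of log2 0.5 and 83% of shifts of log2 1 were recovered, with 9 false calls. The shifted genes were drawn from all genes tested, with errors independent between genes. These shares therefore do not hold for the Krtap genes, whose median SD between replicates was 0.406, against 0.148 for all genes.

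The members and lists were chosen with earlier results of these data known. Sulphur-rich subfamilies were merged into 1 class, and subfamilies 16, 28 and 31 left out of the classes, after the files were read. Named are the genes that passed, the gene with the largest difference where none passed, and the brightest of each subfamily, with others beside them chosen after their values were seen. Alternatives were quantile scaling, normexp background, the deposited table, averaging a gene's probes, keeping dim probes, a trended and robust prior, the replicate number as a block, the array signal as a covariate, only the arrays compared, and leaving out each array or replicate number. Matches of probes to other transcripts were not analysed here. Sequences came from the array files and from RefSeq (GRCm38.p6). Figures used matplotlib.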

Additional observations from a re-analysis of the deposited data

How the results depend on the processing

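The counts of Krtap genes past the threshold changed with the processing as follows. For PH-TA the count was 1, and it was 3 under quantile scaling (28.5% of all genes called in that fit), 6 with normexp background (54.5%), 3 in the value table of the authors (26%), 0 with the array signal as a covariate (0.535%) and 0 with only the arrays compared (18.8%). For PEE-PH it was 0, and it was 4 with normexp (51.1% of all genes) and 7 with only the arrays compared (30.5%). The average effect of PH had 3, which became 7 with normexp (57.1% of all genes), 5 in the value table of the authors (28.3%) and 0 with the covariate (1.17%). With normexp Krtap12-1 and Krtap13-1 were among the 7 and Krtap24-1 was not. That of TA had 2 with normexp (33.8%), and that of PEE had 0 with the covariate (22.1%). Over the settings that left out 1 array or 1 replicate number, the counts ranged from 0 to 7 for PEE, 0 to 2 for PEE-PH, 0 to 1 for PEE-TA, 0 to 15 for PH-TA, 0 to 2 for the average effect of PEE, 0 to 14 for that of PH, 0 to 1 for that of TA and 0 to 4 for the interaction of PH with TA. They stayed at 0 for PH, TA, PEE-PH-TA and the other interactions. The 7 genes of PEE, the 15 of PH-TA and the 14 of PH fell, and all 3 counts came without replicate 3, as did the 4 of the interaction, also below 0. In those fits 6.26%, 21.5%, 21.9% and, for the interaction, 7.99% of all genes were called. For the smaller ranges only the shares of the main fit are given. They were 35.9% of all genes for PEE-PH, 25.5% for PEE-TA, 27% for the average effect of PEE and 7.99% for that of TA. The causes were not tested. The fit with only the arrays compared was not run for averages and interactions, which use all arrays. With the replicate number as a block the counts were 1 for PH-TA, 1 for the average effect of PEE, 3 for that of PH and 0 elsewhere, with the same genes, so the block changed no call. Arrays of the same number did not deviate together in every pair of groups, with correlations over all genes of -0.0855 to 0.312 in 21 pairs, and 12 pairs over 0.1. The precision is limited by 3 arrays a group, and the signal of Krtap31-2 is near background.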

Other observations

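A further 4 probes carried the words keratin-associated protein in their description under another name, and they were not counted among the 55 genes. The probe of a transcript described as 19-9A had a mean signal of 6.47 and that of a transcript described as 28-10 one of -0.01. A gene model described as like 9-1 had -2.92, and a transcript described as a pseudogene of the family had 8.13, all well above background on 24 arrays. The 4 genes with 2 probes, Krtap5-1, Krtap10-4, Krtap19-2 and Krtap20-2, gave signals that differed between probes. With PH-TA the log2 differences of both probes were -0.48 and -0.28 for Krtap19-2, -0.39 and -0.48 for Krtap20-2, 0.40 and 0.37 for Krtap10-4, and -0.30 and -0.34 for Krtap5-1, so each pair had 1 sign there. In other comparisons some pairs differed in sign. Examples are Krtap19-2 for the average effect of PH (-0.10 and 0.10), Krtap20-2 under PEE-TA (0.03 and -0.11) and Krtap5-1 under PEE-PH-TA (0.02 and -0.02).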
